A study of Homo sapiens with 6 samples.

Results

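The translation initiation and elongation factors are the proteins that bring the first tRNA, the mRNA and the ribosomal subunits together and then move the ribosome along the coding sequence. They were taken here as the genes whose symbol begins with EIF and a digit from 1 to 6 or with EEF and a digit 1 or 2, without the EIF2AK kinases, hyphenated symbols and pseudogenes. This rule gave 55 of the 15651 genes in the table. EIF4A1 and EIF3C were not analysed here. The rule uses the symbols alone, but the group was put forward with earlier results of these data known.

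Expression was measured by RNA sequencing in MDA-MB-231 cells, an established human triple-negative breast cancer (TNBC) line, in 3 libraries from cells treated with DMSO, the solvent, and 3 from cells treated with BRL-50481, a small-molecule inhibitor of the cyclic AMP phosphodiesterase PDE7A. The protocol text of the labels gives 50 μM for 72 h, whereas their treatment tag states 5 μM for 48 h. The paper gives the dose and time of the protocol text for this experiment. All libraries come from 1 unmodified cell line, and the labels number 3 replicates in each group. The paper and the series record describe them as biological replicates.

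The libraries held 30750573 to 33446984 reads on genes. DMSO replicate 1 stood apart from the others of its group, its read counts differing from theirs by 13.7 and 22.1 units of chi-square per degree of freedom, where the other pair of DMSO libraries differed by 3.99. The median translation factor lay 0.058 below its DMSO group mean in that library on the log2 scale and 41 of 54 lay below it, against a median of -0.0073 over all genes, so the counts over all factors were also made without it. Mesenchymal genes that mark this line were expressed in all libraries, with VIM at 58840.4 ± 2498 in DMSO and 87654 ± 956 in BRL-50481 (mean ± SD, n = 3 each). Their list of 6 summed to between 175901 and 178080 in the DMSO libraries and between 232438 and 235024 in those with BRL-50481. The list of luminal and receptor genes (5 of its 6, with PGR near 0) summed to 1845 to 2038 and 2263 to 2402. Most of this was ERBB2, with means of 1677 in DMSO and 1914 in BRL-50481. The means of GATA3 (189 and 278) and CDH1 (38.2 and 99.8) rose, and that of FOXA1 (43.6 and 21.0) fell. PECAM1, COL1A1 and ACTA2 summed to 845 to 921 and 1017 to 1106. They come from a list of 5 markers of other cell types, whose PTPRC and CD3E were not analysed here. The part of all these marker genes in the results was not tested.

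Translation of most mRNAs begins with eIF2, which carries the initiator tRNA with GTP to the small ribosomal subunit, where eIF1, eIF1A and the large eIF3 scaffold help it find the start codon. The mRNA is brought by eIF4F, made of the cap-binding protein eIF4E, the scaffold eIF4G and the helicase eIF4A. Once the start codon is found, eIF5 triggers GTP hydrolysis by eIF2, eIF5B joins the large subunit, and eIF2B reloads eIF2 with GTP. The elongation factor eEF1A then delivers each aminoacyl-tRNA, its exchange factor eEF1B recharges it, eEF2 moves the ribosome by a codon, and eIF5A helps it past difficult stretches. The activity of eIF2, eIF4E and eEF2 is commonly controlled by phosphorylation, which RNA sequencing does not measure.

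Most translation factors were lower in BRL-50481-treated cells. Values are normalized counts, that is reads divided by a size factor for the library, and changes are log2 fold changes of BRL-50481 over DMSO on log2(normalized count + 1) from limma, called at a Benjamini-Hochberg adjusted p under 0.05 over all 15246 genes that passed the filter on low values. Of the 54 factors that passed, 36 (66.7%) were called lower, 6 (11.1%) higher and 12 neither way. Over all genes tested, 58.7% were called, 29.8% lower and 28.9% higher. The median change of the 54 factors was -0.27, where that of all genes was 0.015. The fall exceeded 0.5 in 14 factors but exceeded 1 only in EEF1A2, and EIF5 was the only factor to rise by over 0.5. The 6 that rose were EIF5, EIF4G2, EIF2D, EIF4B, EIF4G3 and EIF2S3. Without DMSO replicate 1, 38 were lower and 6 higher, with a median of -0.30. EEF1D and EIF4H were then called lower too, and no call was lost. Most factors lay below their DMSO mean in that library, so leaving it out deepens the falls by itself. Without DMSO replicate 3, 32 were lower and 4 higher, with a median of -0.27. EIF4EBP3, an eIF4E-binding protein, was the factor that did not pass the filter, with values of 3.97, 1.96 and 4.09 in DMSO and 1.01, 2.01 and 4.85 in BRL-50481.

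The groups also separated library by library. In 37 factors (68.5%) every BRL-50481 value lay below every DMSO value, and in 6 (11.1%) every one lay above, against 32.3% and 31.9% of all genes tested. EIF3L and EEF2KMT were separated without passing the test, and EIF4G3 passed it although its groups overlapped. Together the factors took 2.19, 2.29 and 2.25% of the normalized counts in the DMSO libraries and 1.91, 1.93 and 1.94% in the BRL-50481 libraries. All 3 BRL-50481 shares lay below all 3 DMSO shares, and the exact permutation p of 0.1 (two-sided) is the smallest that 3 against 3 libraries can give. EEF1A1 alone accounted for 0.679% ± 0.0079 of the DMSO and 0.542% ± 0.0096 of the BRL-50481 counts (SD over 3 libraries each), and the other factors for 1.56% ± 0.046 and 1.38% ± 0.0061. These are shares of sequenced RNA, so less RNA of the factors and more RNA of other genes cannot be told apart in them.

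**Figure D1:**
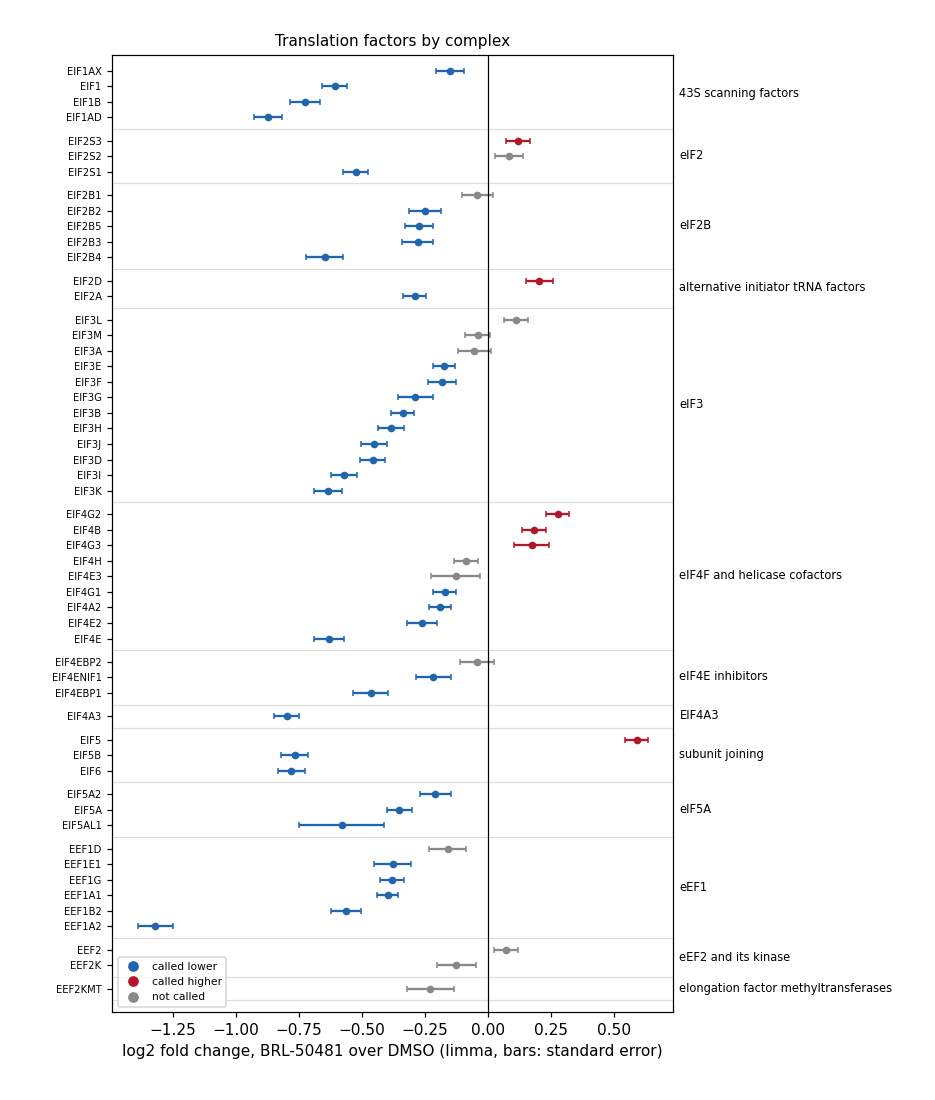
Log2 fold change (x axis, BRL-50481 over DMSO, limma) of each of the 54 translation factors tested, grouped by complex, with bars for the standard error. Blue points were called lower, red points higher and grey points neither way; 36 points are blue and 6 are red, and EEF1A2 lies farthest to the left and EIF5 farthest to the right.

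The promoters of the factors were examined because cyclic AMP, which PDE7A degrades, acts on transcription in part through CREB and its site TGACGTCA (CRE), and because many genes for the translation machinery start transcription at a C followed by a run of pyrimidines, the 5′ terminal oligopyrimidine (TOP) feature that ties their translation to mTORC1. RefSeq promoters on GRCh38.p14, from 250 bases before to 50 after the start, were available for 44 of the 54 factors tested and for 10958 genes in all. The CRE was found on either strand in 1 factor (2.27%), against 3.12% of all promoters, and that factor was EEF2, which was not called. The E2F letters TTTCCCGC were in 0 factors against 2.58% of all promoters, and TTTGGCGC was in EEF1E1 alone (2.27% against 1.07%). TATAAA on the gene's strand was in EEF2 and EIF4A2 (4.55% against 3.86%).

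The E-box CACGTG, whose letters read the same on both strands and which MYC and related proteins bind, was in 11 of 44 factors (25%) against 9.80% of all promoters. Of these 11, 8 were called lower, 1 (EIF4B) higher and 2 (EEF2K and EIF4H) neither way. Among all factors tested, 66.7% were called lower and 11.1% higher. A link between the E-box and the direction of change was not tested. The 100 bases before the start are shown for EIF4E, EIF1B, EIF4G1 and EIF3F, which were lower and hold an E-box there, for EIF4B, which was higher and also holds one, for EEF2 with its CRE and TATA letters, and for EIF5, the factor that rose most and holds none of these motifs in this stretch. EEF2K, which was not called, also holds an E-box in its 100 bases, beginning 59 bases before the start, and is not shown. Capitals mark the motifs, and each sequence reads 5′ to 3′ on the strand of the gene.
EIF4E: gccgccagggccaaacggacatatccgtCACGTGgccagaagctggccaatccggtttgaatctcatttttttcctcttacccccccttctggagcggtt
EIF1B: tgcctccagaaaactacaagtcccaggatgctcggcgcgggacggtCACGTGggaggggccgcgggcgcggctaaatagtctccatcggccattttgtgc
EIF4G1: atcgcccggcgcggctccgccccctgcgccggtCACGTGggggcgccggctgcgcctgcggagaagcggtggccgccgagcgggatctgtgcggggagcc
EIF3F: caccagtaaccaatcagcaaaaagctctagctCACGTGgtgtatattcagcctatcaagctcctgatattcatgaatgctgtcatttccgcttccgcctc
EIF4B: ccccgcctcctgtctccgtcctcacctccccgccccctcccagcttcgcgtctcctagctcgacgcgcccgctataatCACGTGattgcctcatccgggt
EEF2: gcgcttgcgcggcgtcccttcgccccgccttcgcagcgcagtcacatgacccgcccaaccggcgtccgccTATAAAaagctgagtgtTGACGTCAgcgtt
EIF5: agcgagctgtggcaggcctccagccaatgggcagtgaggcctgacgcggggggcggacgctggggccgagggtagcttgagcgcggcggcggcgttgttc

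These stretches lie at chr4:98929134-98929233 (minus strand), chr3:40309607-40309706 (plus strand), chr3:184314506-184314605 (plus strand), chr11:7987237-7987336 (plus strand), chr12:53006356-53006455 (plus strand), chr19:3985464-3985563 (minus strand) and chr14:103334137-103334236 (plus strand). The E-box begins 72 bases before the start in EIF4E, 54 in EIF1B, 67 in EIF4G1, 68 in EIF3F and 22 in EIF4B. In EEF2 the TATA letters begin 30 and the CRE 13 bases before the start. A match of letters is a description and does not show that a protein was bound.

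A C followed by at least 4 pyrimidines and beginning within 5 bases of the annotated start was found in 18 of 44 factors (40.9%) against 22.5% of all promoters. Among these 18, 10 were called lower, 4 higher and 4 neither way. Of all 54 factors tested, including those without a promoter here, 66.7% were called lower and 11.1% higher. A link between the run and the direction of change was not tested. The 20 bases from 5 before to 15 after the start are shown for 4 that were lower (EEF1A1, EIF3K, EIF3D, EIF2A), 2 that were not called (EEF2, EIF3M) and the 4 that were higher (EIF4B, EIF4G2, EIF2D, EIF2S3). Capitals mark the run.
EEF1A1: acgttCTTTTTCgcaacggg
EIF3K: accaCCTCTTCCTgttcccg
EIF3D: gtttCCTCTTTTCCTggttt
EIF2A: ggtttCTCTTTCCgggacaa
EEF2: gcgttCTCTTCCgccgtcgt
EIF3M: gttCCCTTTTCCggtcggcg
EIF4B: cgggtCTTTTgcgttctctt
EIF4G2: gaagcaCTTCCCTaacttgc
EIF2D: cgggCCCTTTTCgcggccgg
EIF2S3: CCTTCCTCTTTTggcaacat

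In the same order, the windows are chr6:73521018-73521037 (minus strand), chr19:38619183-38619202 (plus strand), chr22:36529152-36529171 (minus strand), chr3:150546782-150546801 (plus strand), chr19:3985449-3985468 (minus strand), chr11:32583826-32583845 (plus strand), chr12:53006451-53006470 (plus strand), chr11:10807982-10808001 (minus strand), chr1:206612451-206612470 (minus strand) and chrX:24054951-24054970 (plus strand). The run of EEF1A1 and that of EEF2 each begin at the start itself, while their log2 fold changes were -0.40 and 0.071.

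Positions of genes are those of GENCODE release 44 on hg38. The scanning factors of the small subunit, EIF1, EIF1B and EIF1AX, and EIF1AD, listed with them, were all called lower (4 of 4, median -0.67). EIF1 (chr17:41688885-41692668), which guards the choice of the start codon, had values of 53885, 61495 and 59486 in DMSO and 37870.3, 38190.3 and 38428 in BRL-50481. Its BRL-50481 libraries lay at about 65.5% of the DMSO mean with no overlap, a change of -0.61 ± 0.051 (SE, adjusted p = 5.36e-07). Its paralog EIF1B (chr3:40309707-40312424) had 2989.5, 3211 and 3341 in DMSO and 2005, 1865 and 1893 in BRL-50481, a change of -0.73 ± 0.058 (SE, adjusted p = 3.4e-07). The largest fall of the group was that of EIF1AD (chr11:65996545-66002176), a protein with an eIF1A domain that is not a canonical initiation factor. Its values were 2502, 2495 and 2304 in DMSO and 1309.7, 1334 and 1341 in BRL-50481, and the change was -0.87 ± 0.056 (SE, adjusted p = 5.61e-08). EIF1AX, the X-linked eIF1A gene, moved least, with a change of -0.15 ± 0.055 (SE, adjusted p = 0.0322). That call was lost without DMSO replicate 2 (adjusted p = 0.0589), DMSO replicate 3 (adjusted p = 0.0658), BRL-50481 replicate 2 (adjusted p = 0.131) and BRL-50481 replicate 3 (adjusted p = 0.136). With all libraries kept, it was also lost with quantile normalization (adjusted p = 0.189), median centring (adjusted p = 0.0866) and limma without a trend (adjusted p = 0.0686).

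Of the 3 subunits of eIF2, 1 was lower, 1 was higher and 1 was not called. EIF2S1 (chr14:67360328-67386516), which encodes the alpha subunit that the stress kinases phosphorylate, had values of 6551, 6355 and 6522 in DMSO and 4739.6, 4314 and 4455 in BRL-50481. All BRL-50481 libraries were lower, with a change of -0.53 ± 0.050 (SE, adjusted p = 1.44e-06). For the beta subunit, EIF2S2 (chr20:34088309-34112243), the values were 6961, 8003 and 7751 in DMSO and 7979, 8067 and 7971 in BRL-50481, which overlapped, with a change of 0.083 ± 0.054 (SE, adjusted p = 0.208). EIF2S3 (chrX:24054946-24078810), the gamma subunit that binds GTP and tRNA, had 6305, 6459 and 6196 in DMSO and 7112, 6674 and 6788 in BRL-50481. Its groups were separated by a narrow margin, with a rise of 0.12 ± 0.047 (SE, adjusted p = 0.0445), a call that was lost without DMSO replicate 3 (adjusted p = 0.159), BRL-50481 replicate 1 (adjusted p = 0.178), BRL-50481 replicate 2 (adjusted p = 0.0616) and BRL-50481 replicate 3 (adjusted p = 0.106). With all libraries kept, the call was also lost with DESeq2 (adjusted p = 0.0628) and limma without a trend (adjusted p = 0.0918). Per kilobase of transcript, EIF2S1 was 1559 ± 25.5 in DMSO and 1084 ± 52.2 in BRL-50481, and EIF2S2 was 2962 ± 213 in DMSO and 3132 ± 20.8 in BRL-50481 (mean ± SD, n = 3 each). The highest subunit was thus 1.90 times the lowest in DMSO and 2.89 times in BRL-50481.

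Of the 5 subunits of eIF2B, the exchange factor for eIF2, 4 were lower and EIF2B1 was not called (-0.042 ± 0.061 SE, adjusted p = 0.57). The largest fall was that of EIF2B4 (chr2:27364352-27370338), with values of 1667, 1942 and 1702 in DMSO and 1050.0, 1155 and 1179 in BRL-50481, no overlap and a change of -0.65 ± 0.073 (SE, adjusted p = 6.18e-06). EIF2B2 (chr14:75002921-75012366), the subunit with the most reads (not scaled to length), had 2306, 2625 and 2712 in DMSO and 2145, 2117 and 2144 in BRL-50481 and a change of -0.25 ± 0.063 (SE, adjusted p = 0.0041). The changes of EIF2B3 and EIF2B5 were -0.28 ± 0.062 and -0.28 ± 0.056 (SE). Unlike in eIF2, the ratio of the highest to the lowest subunit per kilobase was smaller after treatment, 1.82 in DMSO and 1.40 in BRL-50481. The lowest was EIF2B2 in both groups, scaled by a transcript of 4304 bases. The highest was EIF2B4 in DMSO (1077) but EIF2B5 in BRL-50481 (693). The pair of proteins that bind initiator tRNA outside eIF2 moved apart. EIF2A (chr3:150546678-150586016) had 5612, 5878 and 5971 in DMSO and 4774, 4796 and 4692 in BRL-50481, a change of -0.29 ± 0.047 (SE, adjusted p = 0.000139). EIF2D (chr1:206571292-206612465) had 1979, 2107 and 2122 in DMSO and 2382, 2407 and 2350.5 in BRL-50481, a change of 0.20 ± 0.053 (SE, adjusted p = 0.00525). Neither gene's groups overlapped, and the difference between the 2 changes was not tested.

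In eIF3, the scaffold that holds the initiation factors on the small subunit, 9 of 12 subunits measured were lower and 3 were not called, with a median of -0.31. EIF3K (chr19:38619082-38636955) fell most, with values of 5053, 5766 and 5584 in DMSO and 3448, 3566 and 3537 in BRL-50481. Every BRL-50481 library was below every DMSO library, with a change of -0.63 ± 0.056 (SE, adjusted p = 7.48e-07). It was followed by EIF3I (-0.57 ± 0.052 SE, adjusted p = 1.07e-06), EIF3D (-0.46 ± 0.049 SE, adjusted p = 4.27e-06) and EIF3J (-0.45 ± 0.051 SE, adjusted p = 7.03e-06). EIF3D can bind the cap of some mRNAs directly, and EIF3J is a loosely bound subunit. EIF3H, EIF3B, EIF3G, EIF3F and EIF3E fell by less, with changes from -0.38 to -0.17.

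EIF3A (chr10:119033670-119080817), the largest subunit and one around which the others assemble, had the highest mean of the complex over all 6 libraries before scaling to length, although EIF3E was higher in DMSO. Its values of 20611, 16923 and 17731 in DMSO and 18088, 17175 and 17789 in BRL-50481 overlapped, and the change was -0.054 ± 0.064 (SE, adjusted p = 0.486). After the correction for transcript length and GC content it was called lower (-0.16, adjusted p = 0.00023), and without DMSO replicate 1 its change was 0.029 (adjusted p = 0.483). EIF3M (-0.041 ± 0.049 SE, adjusted p = 0.496) was not called either. EIF3L had 6076, 6622 and 6231 in DMSO and 6797, 6847 and 6801 in BRL-50481. It was separated upward by a narrow margin but missed the threshold, with a change of 0.11 ± 0.048 (SE, adjusted p = 0.0587). It was called higher without DMSO replicate 2 (adjusted p = 0.0179), with quantile normalization (adjusted p = 0.00868), with median centring (adjusted p = 0.0217) and after the length and GC correction (adjusted p = 0.00368). The call of EIF3F (-0.18 ± 0.056 SE, adjusted p = 0.0129) was lost without DMSO replicate 3 (adjusted p = 0.0651) and BRL-50481 replicate 1 (adjusted p = 0.069). With all libraries kept, it was also lost with quantile normalization (adjusted p = 0.0653) and limma without a trend (adjusted p = 0.0613). Levels per kilobase spanned 13.0-fold in DMSO, from EIF3F at 714 ± 45.2 to EIF3E at 9295 ± 293, and 13.1-fold in BRL-50481, with the same lowest and highest subunit. The 12 messages of a complex whose proteins are needed in near-equal amounts thus differed far more from each other than they did between treatments. The size of the span depends on EIF3F, scaled by a transcript of 6920 bases. The next lowest subunit in DMSO was EIF3M at 1692. Transcript ends that differ from the annotation would change such a comparison.

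**Figure D2:**
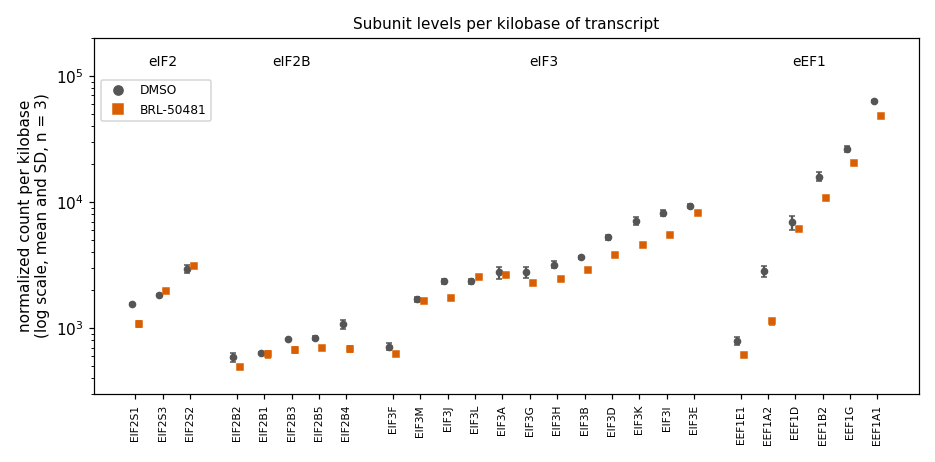
Normalized count per kilobase of transcript (y axis, log scale) of the subunits of eIF2, eIF2B and eIF3 and of the genes with an EEF1 symbol (labelled eEF1), as mean and SD of 3 libraries for DMSO (grey circles) and BRL-50481 (orange squares). Within eIF3 the levels span 13.0-fold in DMSO, while the shift between treatments of any subunit is smaller than the spacing from lowest to highest.

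The proteins that bring the mRNA were split, with 4 of 9 lower, 3 higher and 2 not called. EIF4E (chr4:98879276-98929133), the cap-binding protein, fell most, with values of 1725, 1660.4 and 1826 in DMSO and 1134, 1102 and 1125 in BRL-50481. It is among the factors whose promoter holds the E-box letters. Its BRL-50481 libraries held 64.5% of the DMSO mean without overlap, a change of -0.63 ± 0.059 (SE, adjusted p = 1.38e-06). EIF4E2 (chr2:232550659-232583644), a related cap-binding protein associated with repression, had 1709.6, 1862 and 1859 in DMSO and 1549, 1469.6 and 1509 in BRL-50481, a change of -0.26 ± 0.059 (SE, adjusted p = 0.00187). EIF4E3 (chr3:71675414-71754773), another member of the family, had 361, 382 and 373 in DMSO and 383, 332 and 309 in BRL-50481. Its values overlapped and it was not called (-0.13 ± 0.096 SE, adjusted p = 0.269), except after the length and GC correction (-0.28, adjusted p = 0.0233).

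The scaffolds went in both directions. EIF4G1 (chr3:184314495-184335358), the main scaffold of eIF4F, had 24919.5, 23301 and 23079 in DMSO and 20631, 21235 and 21358 in BRL-50481, a change of -0.17 ± 0.046 (SE, adjusted p = 0.00538) that was lost with quantile normalization (adjusted p = 0.483). EIF4G2 (chr11:10797050-10808940), also known as DAP5, lacks the eIF4E-binding part and serves cap-independent and other special forms of initiation. It had 25594, 23369 and 24233 in DMSO and 29597, 29499 and 29487 in BRL-50481, so that all BRL-50481 libraries were higher, with a change of 0.28 ± 0.045 (SE, adjusted p = 0.000172). EIF4G3 (chr1:20806292-21177285), a paralog of EIF4G1, had 6367, 5149.6 and 5433 in DMSO and 6204, 6251 and 6573 in BRL-50481. Its groups overlapped, and its change of 0.17 ± 0.069 (SE, adjusted p = 0.0449) lost the call without DMSO replicate 2 (adjusted p = 0.164), DMSO replicate 3 (adjusted p = 0.148), BRL-50481 replicate 1 (adjusted p = 0.086), BRL-50481 replicate 2 (adjusted p = 0.0927) and BRL-50481 replicate 3 (adjusted p = 0.159). The length and GC correction also ended it (0.075, adjusted p = 0.0928), as did limma without a trend (adjusted p = 0.161) and edgeR (adjusted p = 0.0543), whereas without DMSO replicate 1 the change was larger (0.26, adjusted p = 3.24e-07).

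Among the helicase and its cofactors, EIF4A2 (chr3:186783205-186789897) had 15713, 15816 and 15801 in DMSO and 14340.5, 13456 and 13678 in BRL-50481, a change of -0.19 ± 0.044 (SE, adjusted p = 0.0021). Small nucleolar RNAs and a microRNA are annotated within this gene on the same strand, so reads from them could not be separated from its own where they overlap exons. EIF4B, which stimulates the helicase, rose (0.18 ± 0.046 SE, adjusted p = 0.00422), whereas EIF4H, a related cofactor, was not called (-0.087 ± 0.048 SE, adjusted p = 0.138). EIF4H had 6960.4, 7648 and 7375 in DMSO and 6894, 6970.2 and 6812 in BRL-50481, and was called lower without DMSO replicate 1 (-0.12, adjusted p = 0.00453). EIF4A3 (chr17:80134369-80147151) resembles the eIF4A helicases but works in the exon junction complex on spliced mRNA. It had 6422, 7148 and 6768 in DMSO and 3867, 3912 and 3898 in BRL-50481, without overlap, a fall with a log2 change of -0.80 ± 0.051 (SE, adjusted p = 4.75e-08). The proteins that hold eIF4E away from eIF4G were also measured. EIF4EBP1 (chr8:38030534-38060365) had 3794, 4676 and 4467 in DMSO and 3042, 3235 and 3056 in BRL-50481, a change of -0.47 ± 0.070 (SE, adjusted p = 8.38e-05). DMSO replicate 1 held the lowest DMSO value by a wide margin but still lay above all BRL-50481 libraries. EIF4EBP2 (chr10:70404145-70428618) had 3366, 2794 and 2839.7 in DMSO and 2924, 2843 and 2920.4 in BRL-50481, which overlapped (-0.046 ± 0.068 SE, adjusted p = 0.585), and was called lower after the length and GC correction (-0.16, adjusted p = 0.00127). EIF4ENIF1, the eIF4E transporter, had a change of -0.22 ± 0.068 (SE, adjusted p = 0.0149), lost without DMSO replicate 3 (adjusted p = 0.0544) and BRL-50481 replicate 2 (adjusted p = 0.0512).

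The subunit joining factors moved by large amounts in opposite directions. EIF5 (chr14:103333544-103345025), the GTPase-activating protein of eIF2, had 5229, 5082 and 5074 in DMSO and 7765, 7702 and 7669 in BRL-50481. The sequence before its start is among those shown above. Its BRL-50481 libraries stood at 150.4% of the DMSO mean and close to each other, a rise of 0.59 ± 0.044 (SE, adjusted p = 1.89e-07). In the opposite direction, EIF5B (chr2:99337371-99401326), the GTPase that joins the large subunit, had 16660.3, 19015 and 18622 in DMSO and 10988, 10309 and 10567 in BRL-50481, a change of -0.77 ± 0.055 (SE, adjusted p = 1.22e-07). EIF6 (chr20:35278907-35284985), which keeps the large subunit from joining too early and takes part in its maturation, had 15699, 18025 and 16724 in DMSO and 9423, 10031 and 9899 in BRL-50481. Its BRL-50481 libraries held 58.2% of the DMSO mean, a change of -0.78 ± 0.054 (SE, adjusted p = 1.04e-07). None of these groups overlapped. A further annotated gene overlaps exons of EIF5 and of EIF6 on the same strand, and reads common to both genes cannot be told apart.

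**Figure D3:**
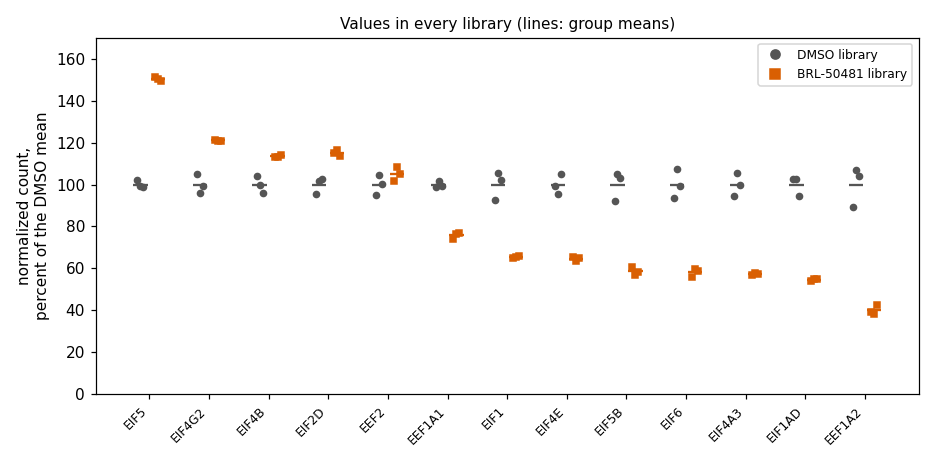
Normalized count of 13 translation factors in every library (y axis, percent of the DMSO mean of the gene), with a point for each DMSO (grey circles) and BRL-50481 (orange squares) library and lines for group means. EIF5 lies at 150.4% and EEF1A2 at 39.99% of the DMSO mean in BRL-50481, and the 2 groups overlap in this plot only for EEF2.

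The eIF5A genes were lower in 3 of 3 cases. EIF5A (chr17:7306999-7312463), a factor activated by the unusual amino acid hypusine, had 19019, 21344 and 20114 in DMSO and 15836, 15429 and 16042 in BRL-50481, a change of -0.35 ± 0.049 (SE, adjusted p = 4.41e-05). EIF5A2 (chr3:170888418-170908644) had 2242, 2035 and 2219.6 in DMSO and 1967, 1754 and 1902 in BRL-50481, a change of -0.21 ± 0.063 (SE, adjusted p = 0.0115). Its call was lost without DMSO replicate 3 (adjusted p = 0.0515) and BRL-50481 replicate 2 (adjusted p = 0.0736). EIF5AL1 (chr10:79512533-79516440) is nearly identical to EIF5A, so the reads assigned to it are uncertain. It had 159.7, 159 and 212 in DMSO and 125, 139 and 92.1 in BRL-50481, a change of -0.58 ± 0.17 (SE, adjusted p = 0.00959). That call was lost without DMSO replicate 3 (adjusted p = 0.0519) and BRL-50481 replicate 3 (adjusted p = 0.0506), and with limma without a trend (adjusted p = 0.0511).

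Of 6 genes with an EEF1 symbol, among them EEF1E1 of the multi-tRNA synthetase complex, 5 fell, and EEF2 was not called. EEF1A1 (chr6:73489308-73525587), which took more reads than any other gene in every library, had 219189, 225373 and 220458 in DMSO and 164467, 169285 and 170696 in BRL-50481. The groups were far apart, with a change of -0.40 ± 0.043 (SE, adjusted p = 4.52e-06). Quantile normalization set this change to 0 (adjusted p = 1), which follows from its construction for a gene that ranks first in every library. EEF1A2 (chr20:63488013-63499239), its tissue-restricted paralog that is often raised in breast cancer, had 4466, 5350.5 and 5227 in DMSO and 1968, 1916 and 2131 in BRL-50481. It kept 39.99% of its DMSO mean, the largest fall of the factors tested, -1.32 ± 0.070 (SE, adjusted p = 1.12e-08). EEF1A1 also has many processed pseudogene copies, so its count could be affected by reads that match more than 1 copy.

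The subunits of eEF1B, which reload eEF1A with GTP, fell in 2 of 3 cases. EEF1B2 changed by -0.56 ± 0.059 (SE, adjusted p = 3.55e-06) and EEF1G by -0.38 ± 0.048 (SE, adjusted p = 1.88e-05). EEF1D had 12416, 15749.7 and 14986 in DMSO and 12417, 12818 and 13183 in BRL-50481. Its lowest DMSO value, in replicate 1, lay just below every BRL-50481 value, and the others lay above. It was not called (-0.16 ± 0.072 SE, adjusted p = 0.0726), but was called lower without DMSO replicate 1 (adjusted p = 3.14e-08). EEF1E1, which despite its name belongs to the multi-tRNA synthetase complex, fell (-0.38 ± 0.075 SE, adjusted p = 0.000711). Per kilobase, EEF1A1 was 63119 ± 930.0 in DMSO and 47878 ± 930.0 in BRL-50481 and EEF1A2 was 2828 ± 270.2 in DMSO and 1131 ± 63.4 in BRL-50481 (mean ± SD, n = 3 each). EEF2 (chr19:3976056-3985463), the translocase and the factor with the CRE letters, had 47887, 52485 and 50478 in DMSO and 51153, 54456 and 52818 in BRL-50481. These values overlapped, with a change of 0.071 ± 0.048 (SE, adjusted p = 0.218), whose 95% confidence interval ran from -0.032 to 0.17. It was called higher after the length and GC correction (0.11, adjusted p = 0.000649) and with quantile normalization (0.31, adjusted p = 2.14e-05). Its inhibitory kinase EEF2K had 943, 787 and 920.3 in DMSO and 810.4, 802 and 807 in BRL-50481, and was not called (-0.13 ± 0.077 SE, adjusted p = 0.177). It was called lower without DMSO replicate 2 (-0.21, adjusted p = 0.0216) and after the length and GC correction (-0.22, adjusted p = 0.00401). EEF2KMT (chr16:5084284-5097795), a methyltransferase that acts on eEF2, had 319, 345 and 295 in DMSO and 269, 269.9 and 278 in BRL-50481. Its groups did not overlap, but it missed the threshold with a change of -0.23 ± 0.094 (SE, adjusted p = 0.0521). EEF2KMT was called lower without DMSO replicate 3 (adjusted p = 0.0379) and with quantile normalization (adjusted p = 0.0151). The same held for limma without a trend (adjusted p = 0.0378), edgeR (adjusted p = 0.0439) and a mean of at least 20 (adjusted p = 0.0459).

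Ratios of paralogs within each library were compared to see whether related genes changed by different amounts, since a ratio does not depend on the size factor of the library. Of 7 pairs, 4 had ratios that did not overlap between the groups. The log2 ratio of EEF1A1 to EEF1A2 was 5.47 ± 0.13 in DMSO and 6.39 ± 0.071 in BRL-50481 (SD over 3 libraries each), a difference of 0.92. Every BRL-50481 library thus held more EEF1A1 relative to EEF1A2 than every DMSO library. For EIF4G1 to EIF4G3 it was 2.08 ± 0.10 in DMSO and 1.73 ± 0.032 in BRL-50481, a difference of -0.35. The ratio of EIF4E to each of its paralogs was lower in every BRL-50481 library than in every DMSO library. Against EIF4E2 it was -0.059 ± 0.094 in DMSO and -0.43 ± 0.019 in BRL-50481. Against EIF4E3 it was 2.22 ± 0.091 in DMSO and 1.72 ± 0.15 in BRL-50481. Each of these 4 comparisons reached the smallest two-sided exact permutation p of 0.1 (0.175 after Benjamini-Hochberg adjustment over the 7 pairs), so the design cannot pass 0.05. The remaining pairs overlapped, with differences of -0.14 for EIF5A to EIF5A2, 0.12 for EIF1 to EIF1B and -0.42 for EIF4EBP1 to EIF4EBP2 (exact permutation p = 0.2, adjusted 0.2).

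**Figure D4:**
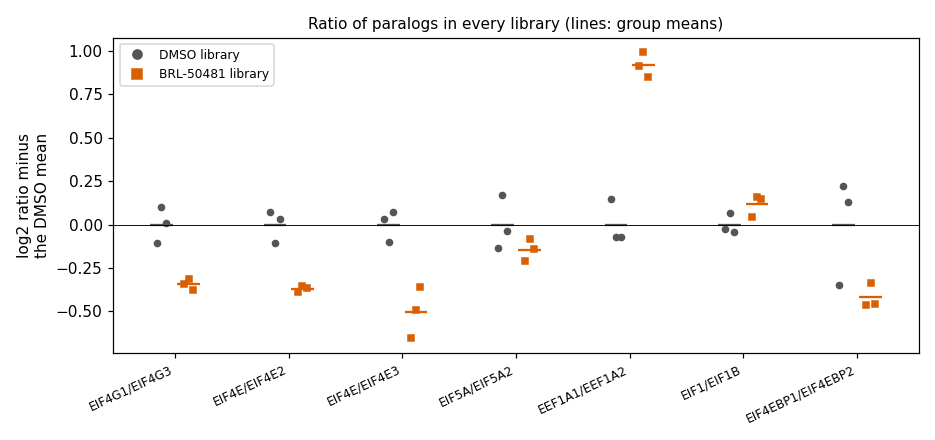
Log2 ratio of 7 paralog pairs in every library (y axis, minus the mean of the DMSO libraries), with grey circles for DMSO, orange squares for BRL-50481 and lines for group means. The BRL-50481 libraries lie 0.92 above the DMSO mean for EEF1A1/EEF1A2, and below every DMSO library for EIF4G1/EIF4G3, EIF4E/EIF4E2 and EIF4E/EIF4E3.

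Genes that regulate or follow these factors were counted from lists of the wider pathway, against the 29.8% of all genes called lower and 28.9% called higher. Of the 4 eIF2 kinases, 3 were higher and EIF2AK3 was not called, while both regulatory subunits of the eIF2 phosphatase were lower. The groups of EIF2AK2 overlapped although it was called higher (0.25 ± 0.084 SE, adjusted p = 0.0233). EIF2AK4 (GCN2), which senses uncharged tRNA, rose from 2812 ± 257 to 3374 ± 35.9 (mean ± SD, n = 3 each), a change of 0.27 ± 0.064 (SE, adjusted p = 0.00287). PPP1R15A (GADD34), the stress-induced phosphatase subunit, went from 30830.5 ± 1171 to 18662 ± 268, a change of -0.72 ± 0.045 (SE, adjusted p = 3.76e-08). Of 12 genes of the mTORC1 arm and the eIF4E kinases, 3 were higher, 2 lower and 7 not called. TSC2, a restraint on mTORC1, rose (0.36 ± 0.066 SE, adjusted p = 0.000398). MTOR also rose, although its groups overlapped (0.21 ± 0.074 SE, adjusted p = 0.0285). RPS6KB1 rose (0.26 ± 0.061 SE, adjusted p = 0.00267), whereas its paralog RPS6KB2 fell (-0.30 ± 0.068 SE, adjusted p = 0.00202), both without overlap. DEPTOR, an inhibitor that binds mTOR, fell at low counts from 54.8 ± 6.57 to 36.4 ± 2.05 (-0.57 ± 0.19 SE, adjusted p = 0.0223). Its call was lost without DMSO replicate 2 (adjusted p = 0.0845) and BRL-50481 replicate 1 (adjusted p = 0.0631), and with DESeq2 (adjusted p = 0.0634).

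Of 6 genes for poly(A) binding, which links the tail of the mRNA to eIF4G, 4 were lower and 2 not called. PAIP2B, which holds poly(A)-binding protein away from the mRNA, fell most (-0.94 ± 0.11 SE, adjusted p = 1.16e-05), and PABPC1, the main poly(A)-binding protein, changed by -0.22 ± 0.041 (SE, adjusted p = 0.000415). Genes listed as other initiation factors, not all of which are initiation factors themselves, were mixed, with 4 of 9 lower and 3 higher. They ran from YTHDF1, a reader of methylated mRNA (-0.42 ± 0.046 SE, adjusted p = 5.23e-06), to DENR, which acts in re-initiation and recycling (0.25 ± 0.050 SE, adjusted p = 0.000808). Termination and recycling factors were lower in 5 of 6 cases with a median of -0.41. HBS1L, a rescue factor for stalled ribosomes, went from 3606 ± 250.01 to 2029 ± 47.2 (-0.83 ± 0.059 SE, adjusted p = 1.18e-07), and ABCE1, which splits ribosomes, changed by -0.61 ± 0.053 (SE, adjusted p = 6.4e-07). The enzymes that add hypusine to eIF5A and diphthamide to eEF2 were lower in 5 of 9 cases and not called in the others. DPH2, of the first step of diphthamide synthesis, fell most, from 1255 ± 62.3 to 637 ± 52.2 (-0.98 ± 0.075 SE, adjusted p = 2.36e-07). DOHH, the second enzyme of hypusine synthesis, was lower (-0.62 ± 0.10 SE, adjusted p = 0.000212), whereas DHPS, the first, was not called (-0.020 ± 0.063 SE, adjusted p = 0.801). Mitochondrial factors were divided, with 3 of 9 lower and 2 higher. TSFM and TUFM, the exchange factor and the elongation factor it serves, changed by -0.42 ± 0.075 (SE, adjusted p = 0.000357) and -0.41 ± 0.052 (SE, adjusted p = 1.98e-05), and GFM2, a mitochondrial recycling factor, rose (0.35 ± 0.056 SE, adjusted p = 0.000139). EIF2AK2, MTOR, RPS6KB1, RPS6KB2, PABPC1, ABCE1, DOHH, DHPS and TUFM were chosen for mention after their values had been seen.

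**Figure D5:**
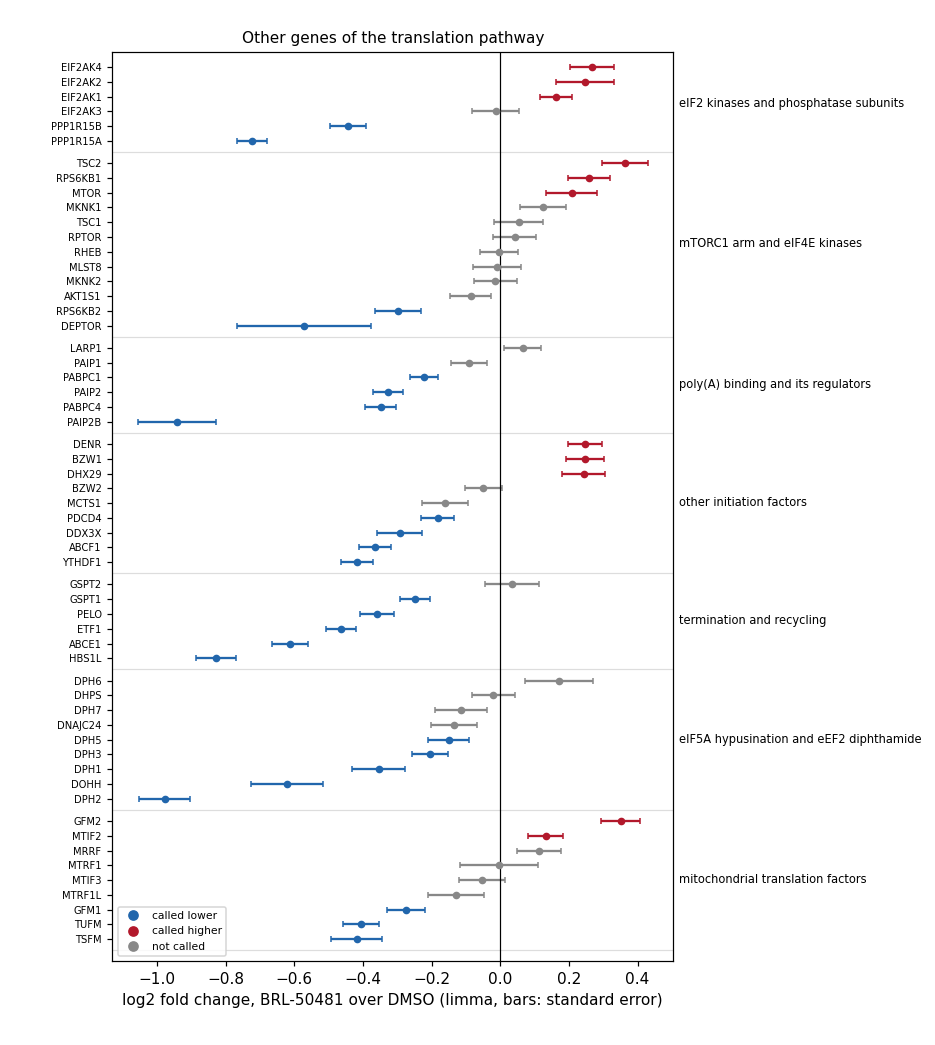
Log2 fold change (x axis, BRL-50481 over DMSO, limma, bars for the standard error) of genes that regulate or complement the translation factors, in 7 lists. Blue points were called lower, red higher and grey neither way; termination and recycling has 5 of 6 genes called lower, and the mTORC1 arm has 7 of 12 not called.

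Transcript length and GC content were set beside these changes, since both can shape counts. The factors had a median transcript length of 2562.5 bases, where all genes had 3173, and a median GC content of 46.4% against 48.5%. After each library was corrected for its trend on both, 40 factors were lower and 7 higher, with a median of -0.28. Among called factors, this correction moved EIF3F to -0.29, adjusted p = 0.00194 and EIF3G to -0.19, adjusted p = 0.000552, besides ending the call of EIF4G3. Quantile normalization moved EIF1 to -0.39, adjusted p = 1.63e-06, EEF1G to -0.25, adjusted p = 0.000214 and EIF4A2 to -0.12, adjusted p = 0.0258. It ended the calls of EIF1AX (-0.088, adjusted p = 0.189), EIF3E (-0.094, adjusted p = 0.0651) and EIF3F (-0.14, adjusted p = 0.0653), in addition to those of EEF1A1 and EIF4G1. In 12 factors another annotated gene overlaps exons on the same strand.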

How the data were processed

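RNA from 3 DMSO-treated and 3 BRL-50481-treated samples of MDA-MB-231 cells was analysed from 1 table of the whole series, and samples were grouped by their labels. The authors' Methods name STAR 2.7.1a for alignment of 76-base single-end reads to hg38, htseq-count with its reverse-strand setting and UCSC gene models for counting, and DESeq2 1.28 for normalization. The labels describe oligo-dT selection with strand marking, the series record ribosomal RNA depletion. The deposited signal is a gene's read count over the size factor of its library (here called the normalized count). Columns of the authors' own comparison (mean, log2 fold change, its SE, test statistic and p-values) were not used, and 0 columns of samples were left out.

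Divided by the value of 1 read in their library, all 93906 values gave whole numbers (100% within 0.01), and the reads so recovered came to 30750573 to 33446984 per library. Genes were kept where 3 or more samples reached a normalized count of 4 (15246 of 15651, with 405 or 2.59% left out). Their log2(normalized count + 1) was compared with limma 3.58.1 in R 4.3.3 (lmFit, eBayes with a trend, groups as the only term), with Benjamini-Hochberg adjustment over all genes kept and a threshold of 0.05. A pseudocount understates the change of genes with low counts. Ratios of paralogs were compared by two-sided exact permutation tests. The results were recomputed with a pseudocount of 0.5 or 4, without the filter, with a mean of at least 20, with quantile normalization, median centring, no trend, a replicate block, a correction for GC content and transcript length (loess, span 0.5), with edgeR 4.0.16 and DESeq2 1.42.0 on the recovered reads, and without each library in turn. The procedures were tested on simulated data.

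Positions, lengths, GC content and overlaps came from GENCODE release 44 on hg38 (14216 genes matched directly and 891 through an older name, so that 96.5% had these properties), and promoters from RefSeq on GRCh38.p14. The members, their complexes, the pathway lists and the promoter motifs were chosen with earlier results of these data known. Within each complex, every library's values are given for the factor with the highest mean and the called factors with the largest rise and fall. They are also given for members of paralog pairs, for EIF4EBP3, and for other factors that gained a call when 1 library was left out. From each pathway list, the called gene with the largest change in each direction is named. Python 3.11.15, numpy 2.4.6, pandas 2.3.3 and matplotlib 3.10.9 were used.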

Additional observations from a re-analysis of the deposited data

How the results depend on the processing

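The number of factors called lower was 32 to 40 and of those called higher 4 to 8 over 17 alternatives, against 36 and 6, and no called factor changed direction. Of the 42 called factors, 32 kept the call under all of them. EEF1A1, EIF3E and EIF4G1 lost it only with quantile normalization. EIF1AX, EIF2S3, EIF4G3, EIF3F, EIF5AL1, EIF4ENIF1 and EIF5A2 lost it under 7, 6, 8, 4, 3, 2 and 2 alternatives, in part where 1 library was left out, which also leaves fewer samples. Of the 12 factors not called, EEF1D, EEF2, EEF2K, EEF2KMT, EIF3A, EIF3L, EIF4E3, EIF4EBP2 and EIF4H were called under at least 1 alternative. Leaving out 1 library at a time gave 32 to 38 lower and 4 to 6 higher, and 3751 to 4876 higher and 4027 to 4933 lower genes over the whole table. The ratio of EIF4A1 to EIF4A2 was not run. Scaling moved the median of all genes by less than 0.1, but median centring called 4743 genes higher and 4211 lower.

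With the replicate number as a block, 37 factors were lower and 6 higher, since EEF1D was then called lower (adjusted p = 0.0278), and no other call changed. Same-numbered libraries deviated from their group means with correlations of 0.12, 0.10 and 0.051, and the labels do not say that the numbers mark a shared day or batch, so no pairing was assumed. With 3 libraries a group, exact permutation tests of ratios and shares cannot go below 0.1, and changes near 0.1 on the log2 scale lie at the limit of what the spread between libraries lets pass.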
